A study of Caenorhabditis elegans with 15 samples.

Results

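The genes hsp-6, hsp-60, dnj-10, lonp-1, spg-7 and ymel-1 of Caenorhabditis elegans encode chaperones and proteases that fold and clear proteins inside mitochondria. They were chosen by name and make up 6 of the 20191 genes in the deposited count table. All 6 had enough counts to be tested in every comparison.

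Most mitochondrial proteins are made in the cytosol and are threaded into the organelle unfolded, where the mitochondrial Hsp70, its J-protein partner and the chaperonin fold them. Proteases of the matrix and the inner membrane remove proteins that fail to fold or to assemble. When import or folding is disturbed, the transcription factor ATFS-1, otherwise imported and degraded, enters the nucleus and turns on a mitochondrial unfolded protein response, for which hsp-6 and hsp-60 are the usual reporters in this worm.

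RNA was sequenced from whole worms on day 1 of adulthood, grown without stress, in 3 strains with 5 libraries each. The strains were the wild type N2, a mutant in fndc-1 (allele rny14) and a double mutant that carries atfs-1 (allele tm4525) together with the same fndc-1 allele, both mutants in the N2 background. FNDC-1 is a receptor for mitophagy, the removal of whole mitochondria, so the 3 strains bear on what loss of that receptor does to the chaperones and proteases and on what follows when atfs-1 is mutated as well. A strain with the atfs-1 allele alone was not sequenced here, so an effect of the atfs-1 allele alone cannot be told apart from an effect that needs loss of fndc-1. The design text calls the libraries biological samples but does not say that they came from separate cultures. The p-values therefore reflect only how far these libraries spread, part of which may be technical.

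Library totals ranged from 46984106 to 61921123 counts. Transcript of fndc-1 fell from 40.9 ± 3.83 CPM (the count relative to the scaled library total, mean ± SD, n = 5) in wild type to 7.39 ± 0.130 in the fndc-1 mutant and 7.95 ± 1.27 in the double mutant, which separates wild type from both mutants but not the mutants from each other. The atfs-1 transcript was at 104 ± 4.92 CPM in wild type, 93.4 ± 4.66 in the fndc-1 mutant and 75.4 ± 4.59 in the double mutant, so most of its counts remained in the strain that carries tm4525. The atfs-1 values of the mutants did not overlap. Replicates of the same strain were not alike. Double-mutant library 2 stood apart from the other 4 libraries of its strain, and the tests of the 6 genes and of the gene lists are given with and without it. A chi-square of the counts per gene was 499.3 to 657.4 for pairs with library 2. Double-mutant library 4 also stood apart, at 120.9 to 150.1 against libraries 1, 3 and 5, which lay at 26.9 to 35.8 among themselves. Library 4 had the highest cuticle, sperm, body wall muscle and endoplasmic reticulum chaperone scores of its strain (2.46, 2.30, 0.67 and 0.39). Each score is the mean centred log2 CPM of the list. It also had the highest hsp-6, spg-7, dnj-10 and lonp-1 of its strain. The part of these scores in the results was not tested. Among the fndc-1 libraries, 4 and 5 stood apart from 1, 2 and 3. There the chi-square was at most 18.9 for pairs within these sets and at least 60.5 for pairs across them. Wild type was also uneven, at 13.5 for libraries 2 and 4 and 31.75 for 3 and 5. Across these pairs it was 75.9 to 102.8, and library 1 lay at 53.2 to 96.5 from the others. The sperm score was 0.69 and 0.38 in wild-type libraries 2 and 4 and from -1.82 to -1.74 in 1, 3 and 5. The part of this split in the results was not tested.

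With all 15 libraries, none of the 6 genes passed the test in any comparison of strains. The test was edgeR's quasi-likelihood F-test, with p-values adjusted by the Benjamini-Hochberg method over the 15032 genes tested and a threshold of 0.05. In the fndc-1 mutant against wild type, 0 of 6 passed, where 1.87% of all genes did. Between the double mutant and wild type, 0 of 6 passed, against 4.71% of all genes. In the double mutant against the fndc-1 mutant, 0 of 6 passed, against 0.978% of all genes. DESeq2 and limma-voom also passed 0 of 6 in each comparison. Of all 15032 genes, DESeq2 passed 784, 1372 and 363 in the same order, and limma-voom 263, 648 and 143. At an unadjusted p under 0.05 the edgeR count was 0, 1 and 0 of 6, the 1 being dnj-10. Under that unadjusted threshold lay 2247, 3202 and 1719 of all 15032 genes. The median log2 fold change of the 6 genes was 0.10, 0.17 and 0.04 in the same order, beside 0.00, 0.00 and 0.02 over all genes. These comparisons share strains and are not independent of each other.

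Without double-mutant library 2, hsp-6 and spg-7 were higher in the double mutant, by 1.49-fold and 1.24-fold over wild type. That is 2 of 6 genes, both in the higher direction, where 7.65% of all genes passed and 4.40% passed as higher. The strains did not overlap for 3 of 6 genes, hsp-6, hsp-60 and spg-7, where 6.91% of all genes lay higher without overlap. The median of the 6 genes was then 0.25 on the log2 scale in that comparison. Against the fndc-1 mutant 0 of 6 passed, where 1.06% of all genes did, with a median of 0.12. Between the fndc-1 mutant and wild type 0 of 6 passed, where 4.87% did, with a median of 0.09. The plot of log2 fold changes sets both sets of estimates side by side.

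**Figure D1:**
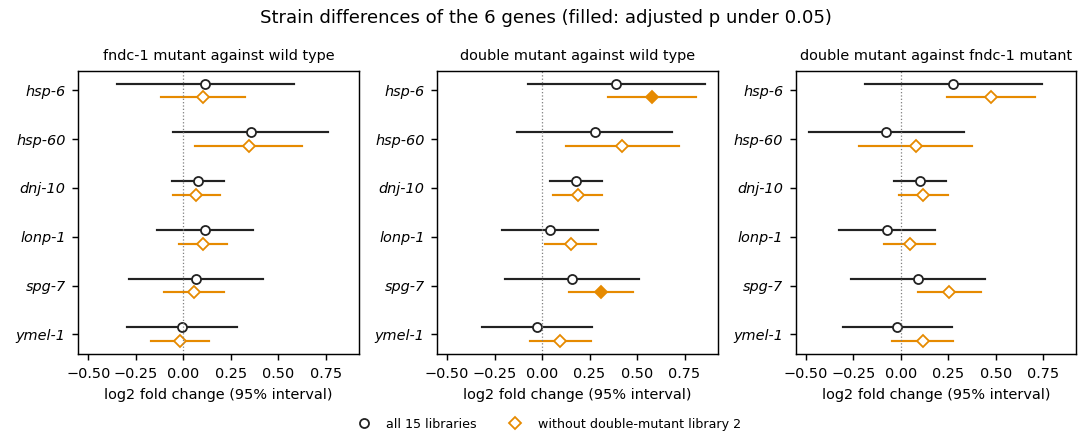
Log2 fold change (x axis) of each of the 6 genes in the 3 comparisons of strains, with 95% intervals (from the normal distribution) as lines. Circles show the fit to all 15 libraries and diamonds the fit without double-mutant library 2. A filled symbol marks an adjusted p under 0.05, which is seen at hsp-6 (0.58) and spg-7 (0.31) in the double mutant against wild type without that library.

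The gene hsp-6 encodes the mitochondrial Hsp70, which pulls incoming proteins through the inner membrane and folds them. It lies on chromosome V from 4824124 to 4826760 on the minus strand (genome build WBcel235, as are all positions here). In wild type, libraries 1 to 5 held 534.5, 638, 691.5, 587 and 696 CPM of hsp-6. In the fndc-1 mutant the values were 612, 577, 602, 808 and 808 CPM. The double-mutant values were 904, 319, 997, 1048 and 857 CPM. Of the double-mutant libraries, 4 lay above every library of the other strains, and library 2 lay below every one of them. Whole-worm RNA does not separate fewer cells that express a gene from less of its RNA per cell, here or for any gene that follows.

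The double mutant exceeded wild type in hsp-6 by a log2 fold change of 0.39 with a standard error (SE) of 0.24, and this did not pass (adjusted p = 0.339, edgeR, 95% interval -0.08 to 0.86). Without double-mutant library 2 the log2 fold change was 0.58 (SE 0.12), and it passed (adjusted p = 0.0115). It also passed with double-mutant library 4 left out beside library 2 (log2 0.53, adjusted p = 0.0393). Over 25 alternatives the adjusted p ran from 0.0115 to 0.566, and these were the 2 that passed. Against the fndc-1 mutant, hsp-6 did not pass with all libraries (log2 0.28, adjusted p = 0.611) or without library 2 (log2 0.47, adjusted p = 0.0872), although in the latter case the strains did not overlap. That was the case for 1 of 6 genes, against 3.75% of all genes in the higher direction. The fndc-1 mutant differed from wild type by a log2 fold change of 0.12 (SE 0.24, 95% interval -0.35 to 0.58, adjusted p = 0.902).

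The gene hsp-60 encodes the chaperonin, a barrel in which imported proteins fold, and lies on chromosome III from 1619742 to 1625803 on the plus strand. Its wild-type values in libraries 1 to 5 were 382, 389, 505, 323.5 and 484 CPM. The fndc-1 mutant had 447, 442, 457, 646 and 671.5 CPM. The double mutant had 541, 266, 618, 575 and 526 CPM. The fndc-1 values fell within the wild-type range in libraries 1, 2 and 3 and above it in libraries 4 and 5, and double-mutant library 2 was again the lowest of all 15 libraries.

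For hsp-60 the fndc-1 mutant stood above wild type by a log2 fold change of 0.36 (SE 0.21, 95% interval -0.05 to 0.76, adjusted p = 0.477). That estimate was 0.14 without fndc-1 libraries 4 and 5 (adjusted p = 0.878). The double mutant stood above wild type by 0.28 (SE 0.21, adjusted p = 0.436), and by 0.42 without its library 2, where the strains did not overlap but the test was not passed (SE 0.15, adjusted p = 0.108). Between the mutants hsp-60 was at -0.08 on the log2 scale (SE 0.21, adjusted p = 0.868), and its sign turned without library 2 (0.08, adjusted p = 0.852).

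The gene dnj-10 encodes a mitochondrial J-protein, a partner that stimulates the Hsp70, and lies on chromosome III from 8631165 to 8633565 on the plus strand. In wild type it was at 56.8, 58.0, 64.2, 55.6 and 56.3 CPM in libraries 1 to 5. In the fndc-1 mutant it was at 58.4, 56.7, 60.3, 64.9 and 67.0 CPM. Double-mutant libraries held 65.3, 60.9, 66.6, 74.3 and 61.9 CPM. Here double-mutant library 2 was the lowest of its strain by a small margin and lay above 4 of the 5 wild-type libraries.

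With all libraries the dnj-10 transcript had the smallest spread between replicates of the 6 genes. Its coefficient of variation was 5.98% in wild type, 7.13% in the fndc-1 mutant and 8.06% in the double mutant. Without double-mutant library 2 the last value was 7.80%, below the 9.12% of hsp-6. It then lay above those of hsp-60 (7.23%), spg-7 (5.02%), lonp-1 (4.78%) and ymel-1 (4.29%). For dnj-10 the double mutant exceeded wild type by a log2 fold change of 0.18 (SE 0.07, 95% interval 0.04 to 0.31). The unadjusted p was 0.0224 and the adjusted p was 0.174, so the gene did not pass. An exact two-sided permutation test of the 5 against 5 libraries gave an unadjusted p of 0.0238. The same permutation test gave 0.429 for hsp-6 and 0.818 for spg-7 in this comparison. Over every other gene and comparison its unadjusted p ran from 0.0952 to 0.968. With upper-quartile scaling of the libraries the same comparison passed (log2 0.26, adjusted p = 0.0394), the only pass among 25 alternatives, whose adjusted p reached 0.3135. The fndc-1 mutant was at 0.08 above wild type (SE 0.07, adjusted p = 0.693), and the double mutant was at 0.10 above the fndc-1 mutant (SE 0.07, adjusted p = 0.564).

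**Figure D2:**
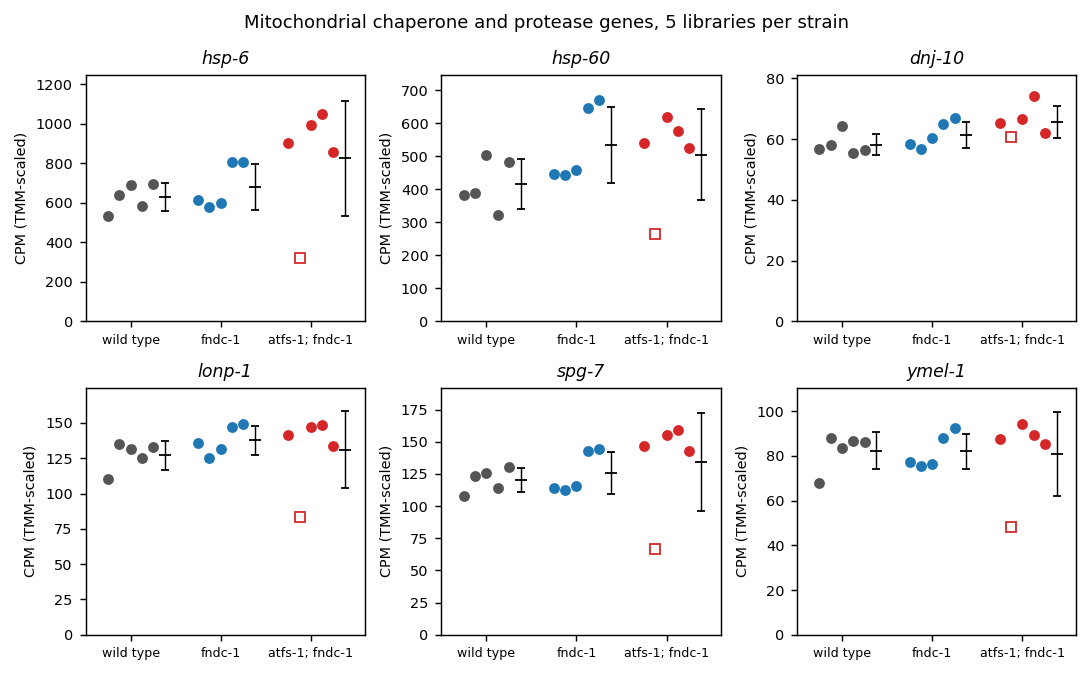
CPM of the 6 genes (y axis, from 0, scaled by TMM factors) in each library of the 3 strains, in order of replicate number, with the mean and SD of the 5 libraries at the right of each strain. The open square is double-mutant library 2. It lies below all other libraries in every panel but that of dnj-10, where it is at 60.9 CPM.

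Of the proteases, lonp-1 encodes the Lon protease of the matrix, which degrades misfolded and oxidised proteins, and lies on chromosome I from 10676922 to 10682374 on the minus strand. Wild-type libraries 1 to 5 held 110, 135, 132, 125 and 133 CPM. The fndc-1 libraries held 136, 125, 131, 147 and 149 CPM. The double-mutant libraries held 141.7, 83.2, 147, 148.5 and 133.5 CPM. Apart from double-mutant library 2, the 3 strains overlapped for lonp-1.

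Strain differences of lonp-1 were small against their errors. The log2 fold change was 0.12 in the fndc-1 mutant against wild type (SE 0.13, adjusted p = 0.773), 0.04 in the double mutant against wild type (SE 0.13, adjusted p = 0.853) and -0.07 between the mutants (SE 0.13, adjusted p = 0.795). Without library 2 the double mutant stood 0.15 above wild type (SE 0.07, adjusted p = 0.177), and the sign between the mutants turned (0.05, adjusted p = 0.801).

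The gene spg-7 encodes a subunit of the m-AAA protease, which works on the matrix side of the inner membrane, and lowering spg-7 is a common way to set off the unfolded protein response in this worm. It lies on chromosome I from 3467132 to 3478517 on the plus strand. The genes Y47G6A.14 and Y47G6A.15 overlap it on the opposite strand, and since the strand setting of the counting is not given in the sources used here, its count is less certain than the others. In wild type it was at 108, 123.4, 126, 114 and 130 CPM in libraries 1 to 5. In the fndc-1 mutant it was at 114, 112.5, 115.3, 143 and 145 CPM, and in the double mutant at 147, 66.8, 155, 159 and 143 CPM. As for hsp-6, the other 4 double-mutant libraries lay above every wild-type library, and fndc-1 libraries 4 and 5 reached the lower part of their range.

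With all libraries spg-7 was at a log2 fold change of 0.16 in the double mutant against wild type (SE 0.18, adjusted p = 0.612). Without library 2 it was at 0.31 and passed (SE 0.08, adjusted p = 0.0416), and with libraries 2 and 4 left out it did not pass (log2 0.28, adjusted p = 0.126). Its adjusted p over 25 alternatives ran from 0.0416 to 0.800. Between the mutants it was at 0.09 with all libraries (SE 0.18, adjusted p = 0.816) and at 0.25 without library 2 (SE 0.08, adjusted p = 0.236). In the fndc-1 mutant against wild type it was at 0.07 (SE 0.18, adjusted p = 0.931).

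The gene ymel-1 encodes the i-AAA protease, which faces the space between the membranes, and lies on chromosome III from 10416139 to 10421757 on the plus strand. Its wild-type values were 67.7, 88.1, 83.5, 86.8 and 86.1 CPM in libraries 1 to 5. The fndc-1 mutant had 77.5, 75.6, 76.5, 87.9 and 92.7 CPM, and the double mutant had 87.6, 48.0, 94.5, 89.4 and 85.5 CPM. The strain means were close together, at 82.5 ± 8.39, 82.0 ± 7.78 and 81.0 ± 18.7 CPM (SD, n = 5).

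For ymel-1 the log2 fold changes were -0.01 in the fndc-1 mutant against wild type (SE 0.15, 95% interval -0.30 to 0.28), -0.03 in the double mutant against wild type (SE 0.15, 95% interval -0.31 to 0.26) and -0.02 between the mutants (SE 0.15, 95% interval -0.31 to 0.27). The adjusted p-values were 0.993, 0.927 and 0.957. Its direction in each comparison changed with the scaling or with single libraries. Without library 2 the double mutant was at 0.10 above wild type (adjusted p = 0.475) and 0.11 above the fndc-1 mutant (adjusted p = 0.581).

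Double-mutant library 2 held 33.6% of the mean of the other 4 libraries of its strain for hsp-6. The share was 44.2% for spg-7, 47.0% for hsp-60, 53.8% for ymel-1, 58.3% for lonp-1 and 90.8% for dnj-10. Leaving it out narrowed the double-mutant spread. The coefficient of variation of hsp-6 went from 35.5% to 9.12% and that of spg-7 from 28.5% to 5.02%, while that of dnj-10 went from 8.06% to 7.80%. The counts behind the 6 genes ran from 2661 to 60165 per library, with standard errors of 0.408% to 1.94% that cover counting only.

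The low values of library 2 were set against 8671 genes with a mean of at least 5 CPM, of which the median lay at -0.17 on the log2 scale against the mean of the other 4. The median of the 6 genes was -0.99. Of all these genes, 5.48% lay lower than hsp-6, 11.5% lower than spg-7, 13.3% lower than hsp-60, 18.3% lower than ymel-1, 21.6% lower than lonp-1 and 52.0% lower than dnj-10. Other lists of mitochondrial genes had medians near 0 over members that went both ways. The median was -0.10 over 20 nuclear genes of mitochondrial enzymes, 0.09 over 6 other mitochondrial chaperones and co-chaperones and 0.19 over 6 other mitochondrial proteases and peptidases. Single genes of the last 2 lists ran from -0.70 for ppgn-1 and -0.66 for atad-3 to 0.61 for immp-1 and 0.70 for dnj-21. Chaperones of other compartments were lower in library 2, with a median of -0.53 over 15 genes of the cytosol and -0.61 over 10 of the endoplasmic reticulum. Regulators of the mitochondrial response had a median of -0.89 over 8 genes.

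**Figure D3:**
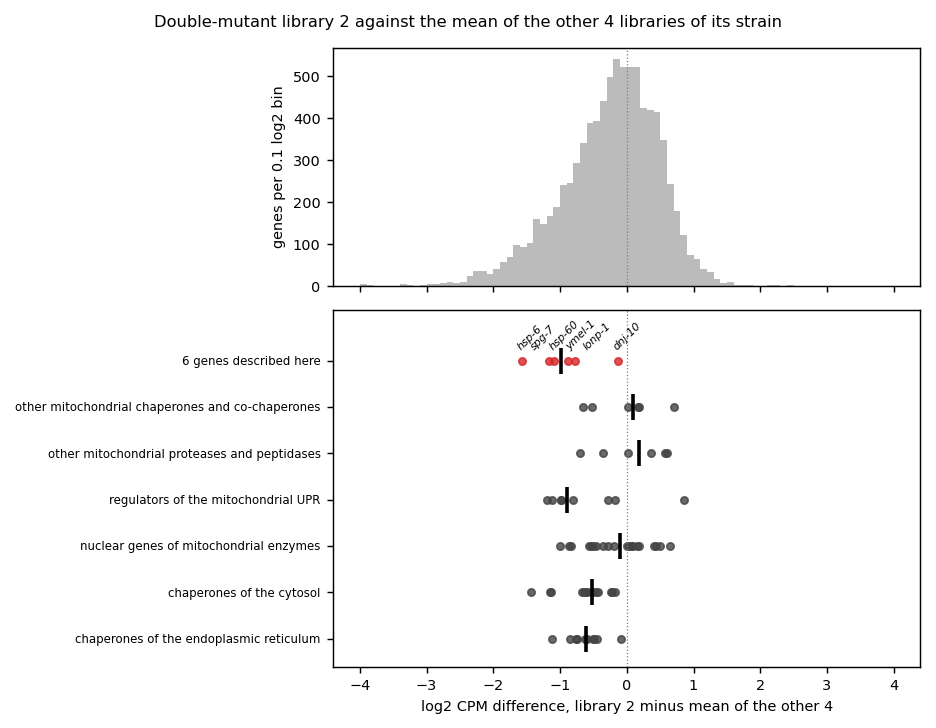
Log2 CPM difference between double-mutant library 2 and the mean of the other 4 libraries of its strain (x axis), as a histogram over 8671 genes (upper panel) and gene by gene for the 6 genes and 6 lists (lower panel, vertical bars are medians). The 6 genes have a median of -0.99, with hsp-6 at -1.57 and dnj-10 at -0.14, while the medians of other mitochondrial chaperones and proteases are 0.09 and 0.19, with genes on both sides of 0.

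Markers of tissues moved in the same library. Summed over 15 germ-line markers, library 2 held 3583 CPM, and the other double-mutant libraries held 7272 to 8970, wild type 7177 to 8775 and the fndc-1 mutant 7242 to 9477. In it 6 of the 15 were below the mean of the other 4 by more than 1 on the log2 scale, as were 5 of 10 intestinal, 4 of 10 body wall muscle, 2 of 11 oocyte and eggshell, 1 of 10 cuticle and 0 of 18 sperm markers. Over all 8671 genes the share was 15.15%, near that of the oocyte and cuticle lists. The 10 intestinal markers summed to 26480 CPM in library 2, 59040 to 95130 in the other double-mutant libraries, 69320 to 95040 in wild type and 60730 to 85730 in the fndc-1 mutant. The 16 genes of the cytosolic ribosome went the other way, with 45490 CPM in library 2, 33100 to 37790 in the other double-mutant libraries, 30810 to 33690 in wild type and 30900 to 35500 in the fndc-1 mutant. So did the sum of the 10 cuticle markers, with 6417 CPM in library 2, 3902 to 4817 in the other double-mutant libraries, 2166 to 2994 in wild type and 2748 to 4149 in the fndc-1 mutant. Gene by gene the cuticle markers went both ways, from -1.63 to 2.11, with a median shift of 0.10. Their mean centred log2 CPM was 0.81 in library 2, inside the -0.23 to 2.455 of the other double-mutant libraries. The body wall muscle markers had a median shift of 0.03 and went both ways, from -4.04 to 1.09, and their sum of 4557 CPM lay inside the 3229 to 5437 of the other double-mutant libraries. The intestinal markers also went both ways, from -1.75 to 0.48, with a median of -0.88. Germ-line markers ran from -2.42 to 0.26 and oocyte and eggshell markers from -1.53 to 0.29, with medians of -0.83 and -0.73. The intestinal list holds the yolk protein genes vit-2, vit-3, vit-4, vit-5 and vit-6, and a sum gives its highest genes most weight. No marker was at 0 in any library. Their part in the low values of the 6 genes was not tested.

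Among the fndc-1 libraries, 4 and 5 were above 1, 2 and 3 for every one of the 6 genes. For hsp-60 libraries 1 to 3 lay between 442 and 457 CPM and libraries 4 and 5 between 646 and 671.5 CPM, a log2 difference of 0.55. The difference was 0.44 for hsp-6, 0.34 for spg-7, 0.24 for ymel-1, 0.18 for lonp-1 and 0.18 for dnj-10. The chaperones of the cytosol moved likewise, with a mean centred log2 CPM of -0.13 to -0.10 in libraries 1 to 3 and 0.17 to 0.20 in libraries 4 and 5. The germ-line score, computed in the same way, was -0.09 to -0.05 in libraries 1 to 3 and 0.20 to 0.23 in libraries 4 and 5. The oocyte and eggshell score was -0.15 to -0.10 against 0.12 and 0.15, the sperm score -0.73 to 0.02 against 1.26 and 0.32, and the cuticle score -0.85 to -0.60 against 0.33 and -0.45. Scores of the other mitochondrial chaperones (-0.11 to -0.06 against 0.05 and 0.10) and of the cytosolic ribosome (-0.14 to -0.09 against -0.01 and 0.06) also rose. Those of body wall muscle (0.06 to 0.11 against 0.03 and -0.04) and of the regulators (0.07 to 0.11 against -0.04 and 0.03) were lower. The intestinal score overlapped, at -0.11 to 0.13 against -0.05 and -0.01. The part of these scores in the difference was not tested. Without libraries 4 and 5 the log2 fold change of the fndc-1 mutant against wild type was -0.05 for hsp-6 and -0.05 for spg-7 (adjusted p = 0.982 and 0.974).

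**Figure D4:**
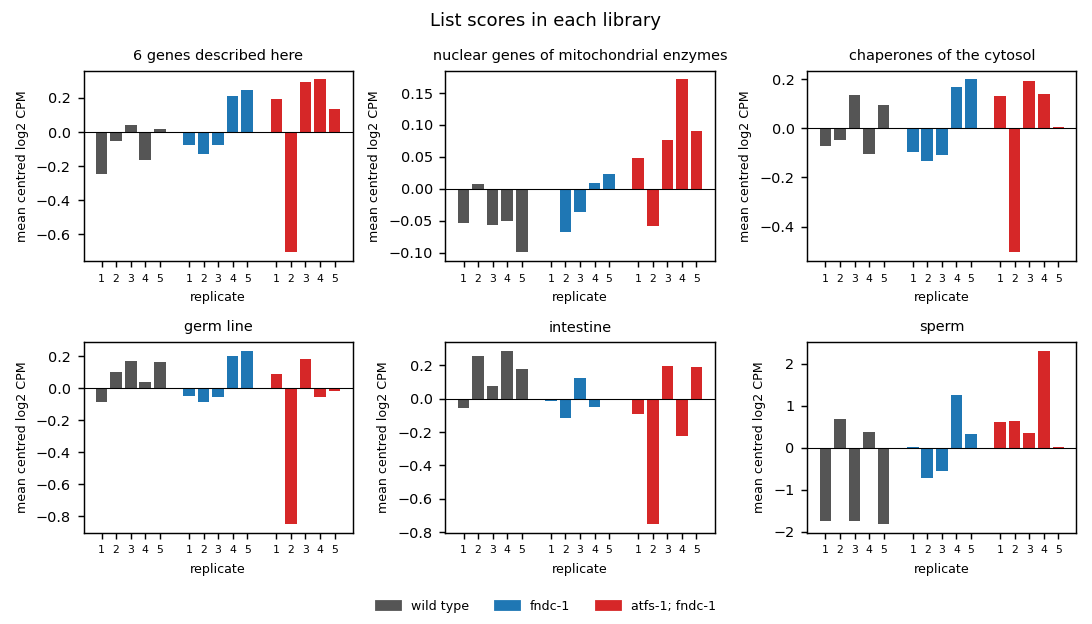
Score of 6 gene sets in each library, the mean over the genes of their log2 CPM centred on the mean of all 15 libraries (y axis, scales differ between panels), by strain and replicate number. The 6 genes described here are lowest in double-mutant library 2 (-0.70), where the germ-line score is also lowest (-0.85), and both are higher in fndc-1 libraries 4 and 5 than in 1 to 3.

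Levels of the 6 genes were compared per length, as CPM per kilobase of exon. In wild type hsp-6 was at 256 ± 28.1, hsp-60 at 196 ± 35.7, lonp-1 at 41.5 ± 3.30, spg-7 at 41.2 ± 3.11, dnj-10 at 34.3 ± 2.05 and ymel-1 at 31.9 ± 3.25 (SD, n = 5). The chaperones hsp-6 and hsp-60 were thus far above their partner and the proteases. Within libraries hsp-6 exceeded hsp-60 in 15 of 15, by 1.04 to 1.57 times, and hsp-60 exceeded lonp-1 in 15 of 15, by 3.73 to 6.49 times. The level of lonp-1 exceeded that of spg-7 in 6 of 15 libraries only, so these neighbours did not differ beyond their spread. The level of dnj-10 exceeded that of ymel-1 in 13 of 15 libraries, with ratios of 0.976 to 1.93. All 6 together took 0.127% to 0.156% of the counts in wild type, 0.146% to 0.185% in the fndc-1 mutant and 0.0962% to 0.214% in the double mutant.

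Ratios within a library do not depend on how libraries are scaled. The count of hsp-6 over that of lonp-1 was 4.69 to 5.25 in wild type and 4.52 to 5.50 in the fndc-1 mutant. In the double mutant it was 6.38, 3.84, 6.77, 7.06 and 6.42 in libraries 1 to 5, above every other library but for library 2, which was the lowest of all. Over dnj-10, hsp-6 was at 9.41 to 12.3 in wild type, 9.99 to 12.4 in the fndc-1 mutant and 13.8, 5.25, 15.0, 14.1 and 13.8 in the double mutant, with the same order. The ratio of hsp-6 to hsp-60 was 1.37 to 1.81 in wild type, 1.203 to 1.37 in the fndc-1 mutant and 1.67, 1.202, 1.61, 1.82 and 1.63 in the double mutant. For this ratio the fndc-1 range ended where the wild-type range began. For the protease pair spg-7 and ymel-1 the ratio was 1.31 to 1.596 in wild type, 1.47 to 1.63 in the fndc-1 mutant and 1.67, 1.39, 1.64, 1.78 and 1.67 in the double mutant, the 4 highest of these lying above both other strains. These ratios were chosen after the values were seen and are given as a description.

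**Figure D5:**
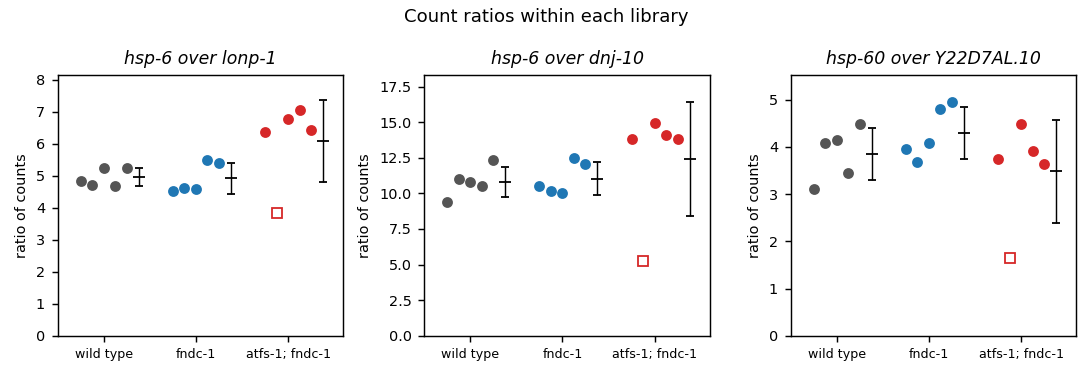
Ratio of the counts of 2 genes within each library (y axis, from 0) for hsp-6 over lonp-1, hsp-6 over dnj-10 and hsp-60 over Y22D7AL.10, by strain, with mean and SD of 5 libraries. The open square is double-mutant library 2, the lowest in each panel (3.84, 5.25 and 1.64). In the first 2 panels the other 4 double-mutant libraries lie above all libraries of the other strains.

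Across the 15 libraries the 6 genes went up and down together. Spearman's rho of log2 CPM over the 15 pairs of genes ran from 0.56 for dnj-10 with ymel-1 to 0.98 for hsp-6 with spg-7. Without double-mutant library 2 (n = 14) it ran from 0.62 to 0.98. The points share strain, library and depth, and they include the differences between fndc-1 libraries described above. The pair hsp-6 and spg-7 kept a rho of 0.98 without library 2.

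Among 5295 other named genes with a mean of at least 5 CPM, those closest to hsp-6 over the 15 libraries were dlat-1 and dld-1, which encode parts of the pyruvate dehydrogenase complex, emb-8, mct-2 and pfk-1.1, a phosphofructokinase of glycolysis, with rho from 0.94 to 0.95. Closest to the mean of the 6 genes were mrps-30, a protein of the mitochondrial ribosome, gfm-1 and tufm-1, elongation factors of mitochondrial translation, atp-2, a subunit of the ATP synthase, and cct-5, a subunit of the cytosolic chaperonin, with rho from 0.96 to 0.97. Without double-mutant library 2 the rho of these 10 genes was 0.92 to 0.98. None of the 10 passed the test between strains with all libraries. For tufm-1 the log2 fold change in the double mutant against wild type was 0.24 (SE 0.10, adjusted p = 0.196).

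Other genes of mitochondrial protein quality control mostly did not pass. Of all genes, 1.87% passed in the fndc-1 mutant against wild type, 4.71% in the double mutant against wild type and 0.978% between the mutants. Without double-mutant library 2 these shares were 4.87%, 7.65% and 1.06%. Of 6 other mitochondrial chaperones and co-chaperones, 0 passed in the fndc-1 mutant against wild type, 1 was higher in the double mutant against wild type and 0 passed between the mutants, with medians of 0.03, 0.10 and 0.09 on the log2 scale (0.02, 0.10 and 0.09 without double-mutant library 2). The gene that passed was Y22D7AL.10, given no other name in the table. It lies on chromosome III from 1617151 to 1618929 on the minus strand, 812 bases from hsp-60 and head to head with it. Its wild-type values were 122.6, 95.6, 122, 93.9 and 108 CPM. In the fndc-1 mutant they were 112.9, 120, 112, 135 and 135.5 CPM and in the double mutant 145, 162, 138, 147 and 145 CPM, the latter above all other libraries and with library 2 the highest.

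The log2 fold change of Y22D7AL.10 in the double mutant against wild type was 0.44 (SE 0.09, adjusted p = 0.0116). It was 0.39 without library 2 (adjusted p = 0.0166), and the call was lost when only these strains were fitted (adjusted p = 0.0521) and with libraries 2 and 4 left out (adjusted p = 0.0504). It passed under 23 of 25 alternatives. Its neighbour hsp-60 went another way in library 2, where the count of hsp-60 over that of Y22D7AL.10 was 1.64, against 3.63 to 4.48 in the other double-mutant libraries, 3.11 to 4.48 in wild type and 3.69 to 4.95 in the fndc-1 mutant. On the same list hsp-75, the mitochondrial member of the Hsp90 family, was at 136.5 ± 7.71, 141.9 ± 13.7 and 133 ± 19.9 CPM in the 3 strains, with a log2 fold change of -0.03 in the double mutant against wild type (adjusted p = 0.859).

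Of 6 other mitochondrial proteases and peptidases, 0 passed in each comparison with all libraries, with medians of -0.09, 0.06 and 0.19 in the order fndc-1 mutant against wild type, double mutant against wild type and between the mutants. Without double-mutant library 2 the medians were -0.10, -0.01 and 0.14, so that the second lost its sign. In that fit clpp-1 was lower in the fndc-1 mutant and mppa-1 was higher in the double mutant, both relative to wild type. Of all genes, 4.87% and 7.65% passed in these comparisons without library 2. The gene clpp-1, the proteolytic subunit of the Clp protease of the matrix, was at 30.9 ± 2.63 CPM in wild type, 26.4 ± 0.635 in the fndc-1 mutant and 31.9 ± 3.92 in the double mutant. Its log2 fold change in the fndc-1 mutant was -0.23 with all libraries (adjusted p = 0.211) and -0.23 without library 2 (adjusted p = 0.0368). It passed under 2 of 25 alternatives, with adjusted p from 0.0297 to 0.523. The gene mppa-1, a subunit of the peptidase that removes import signals, was at 39.0 ± 2.47, 43.4 ± 3.82 and 48.0 ± 5.26 CPM in the same order. Against wild type, mppa-1 in the double mutant had a log2 fold change of 0.30 with all libraries (adjusted p = 0.0628) and 0.35 without library 2 (adjusted p = 0.00844). It passed under 9 of 25 alternatives, with adjusted p from 0.00382 to 0.140.

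Of 8 regulators of the mitochondrial unfolded protein response, atfs-1 alone passed. The double mutant had less of it than wild type, with a log2 fold change of -0.46 (SE 0.06, adjusted p = 0.000444), and less than the fndc-1 mutant, at -0.31 (SE 0.06, adjusted p = 0.0156). The latter call was lost when only these strains were fitted (adjusted p = 0.0525), without fndc-1 library 4 (adjusted p = 0.0565) and without fndc-1 libraries 4 and 5 (adjusted p = 0.0745). The other 7 regulators, among them haf-1, a mitochondrial peptide exporter, did not pass. Of all genes, 4.71% passed in the double mutant against wild type and 0.978% between the mutants. The medians of the 8 genes were -0.07, -0.12 and -0.17 in the 3 comparisons, and -0.08, -0.03 and -0.04 without double-mutant library 2.

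Of 20 nuclear genes of mitochondrial enzymes, gas-1 alone passed, in the double mutant against wild type, where 4.71% of all genes did. It encodes a subunit of complex I and was at 81.1 ± 4.15 CPM in wild type, 97.0 ± 4.53 in the fndc-1 mutant and 111 ± 10.4 in the double mutant. The log2 fold change was 0.46 (SE 0.07, adjusted p = 0.00163), with no overlap of the strains, and in the fndc-1 mutant against wild type it was 0.26 (SE 0.07, adjusted p = 0.0708). The medians of the 20 genes were 0.01, 0.10 and 0.07 in the 3 comparisons, and 0.00, 0.13 and 0.12 without double-mutant library 2. Without library 2, sdha-1 and cyc-1 passed as well in the double mutant against wild type, at 0.22 and 0.17 (adjusted p = 0.0102 and 0.0235). These encode subunits of complex II and complex III. In the same fit gas-1 passed in the fndc-1 mutant against wild type (log2 0.25, adjusted p = 0.0378) and cox-4, a subunit of complex IV, between the mutants (log2 0.20, adjusted p = 0.0303). With all libraries the adjusted p was 0.755 for sdha-1, 0.475 for cyc-1 and 0.152 for cox-4. Without library 2, 4.87%, 7.65% and 1.06% of all genes passed in the 3 comparisons.

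No chaperone outside mitochondria passed with all libraries. Of 15 chaperones of the cytosol 0 passed in each comparison, with medians of 0.02, 0.03 and 0.00, and of 10 chaperones of the endoplasmic reticulum 0 passed, with medians of 0.05, 0.09 and -0.04. Without double-mutant library 2 the medians were 0.01, 0.09 and 0.10 for the cytosol and 0.04, 0.16 and 0.05 for the endoplasmic reticulum. The count was again 0 for the cytosol, and 1 gene of the endoplasmic reticulum, dnj-20, passed as higher in the fndc-1 mutant over wild type (0.24 on the log2 scale, adjusted p = 0.0318, and 0.286 with all libraries). Of all genes, 4.87% passed in that comparison without library 2. Of the markers of tissues, 0 of 15 germ-line, 0 of 11 oocyte and eggshell, 0 of 10 intestinal and 0 of 18 sperm genes passed in any comparison with all libraries. In the double mutant against wild type 1 of 10 body wall muscle, 2 of 10 cuticle and 1 of 16 ribosomal genes were higher, and the same count of ribosomal genes was higher between the mutants. Of all 15032 genes, 558 passed as higher in the double mutant against wild type and 111 between the mutants. The marker counts were the same without double-mutant library 2, except that 1 of 15 germ-line genes was lower in the double mutant against wild type. Of all 15127 genes in that fit, 492 passed as lower in this comparison. The 18 sperm genes summed to 20.5 to 169 CPM in wild type, 57.7 to 259 in the fndc-1 mutant and 102 to 525 in the double mutant, with median log2 fold changes of 0.73, 1.57 and 0.84 in the 3 comparisons (0.72, 1.65 and 0.92 without library 2). The part of these markers in the strain differences of hsp-6 and spg-7 was not tested.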

How the data were processed

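The values deposited by the authors are unnormalized read counts for each gene in the 15 libraries. The tools were Trimmomatic 0.36, STAR 2.6.0c, featureCounts and Subread 1.6.1, with the build WBcel235, per the submitters' processing notes. The sources used here do not give the annotation release, the strand setting or the handling of multiply mapping reads.

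Genes were kept by filterByExpr with strain as group (15032 of 20191), and CPM was computed with TMM factors (0.932 to 1.14). Strains were compared with edgeR 4.0.16 (R 4.3.3), by its two-sided quasi-likelihood test over all 15 libraries with strain means only. The SE is the log2 fold change over the root of F. Scores and likeness used log2 CPM with 0.5 CPM added. No pair of replicates agreed within sampling noise (lowest chi-square per gene 8.07). Positions and exon lengths came from Ensembl release 115 of WBcel235. The tests were tried on simulated counts first.

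The 6 genes, the lists and the markers were chosen with earlier results of these data known. The text names the 6 genes, list members past the test (at most 3 per list and comparison), the 5 genes most like hsp-6 and the 5 most like the mean of the 6 genes, fndc-1 and atfs-1. Genes named from the fit without double-mutant library 2, hsp-75 and haf-1 were taken up after their values were seen. So were ppgn-1, atad-3, immp-1 and dnj-21, named as the extremes of their lists in double-mutant library 2. The listed names trap-1 (another gene in the table) and clpx-1 (not matched) were not used. Alternatives were RLE and upper-quartile scaling, DESeq2 1.42.0, limma-voom (limma 3.58.1), no filter, a minimum of 1 CPM in 5 libraries, a replicate block, fits limited to the compared strains, exact permutation tests and libraries left out.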

Additional observations from a re-analysis of the deposited data

Results flagged for a closer look

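In 18 groups of 5 libraries, 1 for each of the 6 genes in each strain, a library far from the others of its strain was looked for by the gap to its nearest neighbour as a share of the range. In independent groups chance alone gives about 1 in 20. The 18 groups are not independent, since the 6 genes share libraries and go up and down together (rho 0.56 to 0.98). The 7 found can therefore not be weighed by that rate. In the double mutant, 5 were library 2. It was lowest for hsp-6 at 319.3 CPM (next 856.7), for hsp-60 at 265.7 CPM (next 526.1), for lonp-1 at 83.22 CPM (next 133.5), for spg-7 at 66.76 CPM (next 142.9) and for ymel-1 at 48.03 CPM (next 85.5). In wild type, ymel-1 was lowest in library 1 at 67.73 CPM (next 83.55), and dnj-10 was highest in library 3 at 64.22 CPM (next 57.96).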

How the results depend on the processing

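The count of the 6 genes past the threshold in the double mutant against wild type was 0, but 1 with upper-quartile factors (dnj-10), 1 without double-mutant libraries 2 and 4 (hsp-6), and 0 to 2 when each library was left out, the 2 being hsp-6 and spg-7 without double-mutant library 2. In the other comparisons it was 0 under every alternative run. Over all genes, the fndc-1 mutant against wild type gave 281 calls, but 784 with DESeq2, 575 with only the strains compared, 1116 without double-mutant libraries 2 and 4, and 146 to 736 with single libraries left out (736 without double-mutant library 2). The double mutant against wild type gave 708, but 1372 with DESeq2, 275 with only the strains compared and 397 to 1157 with single libraries left out. Between the mutants 147 became 363 with DESeq2. Correlations between the deviations of replicates with the same number ran from -0.51 to 0.63. For number 4 they were positive in every comparison, at 0.28, 0.48 and 0.63. In the double mutant against wild type they were 0.43, 0.48 and 0.50 for numbers 3, 4 and 5. Pairs with unlike numbers were not computed as a reference, so these values do not settle whether the numbers pair the libraries. With the replicate number as a block the counts over all genes were 155 in the fndc-1 mutant and 507 in the double mutant against wild type, and 0 of the 6 genes passed in any comparison. The block also ended the call of atfs-1 between the mutants (adjusted p = 0.0698). Signs turned for values that no fit called. Without fndc-1 libraries 4 and 5, the log2 fold change in the fndc-1 mutant against wild type was -0.0452 for hsp-6 and -0.0471 for spg-7, and between the mutants it was 0.144 for hsp-60 and 0.0569 for ymel-1. Without double-mutant libraries 2 and 4 it was between the mutants 0.0657 for hsp-60, 0.0230 for lonp-1 and 0.110 for ymel-1, and against wild type 0.0924 for ymel-1. For ymel-1, upper-quartile factors gave 0.0107 in the fndc-1 mutant, 0.0329 in the double mutant and 0.0222 between them, and in the fndc-1 mutant no filter gave 0.00910 and RLE factors and DESeq2 both gave 0.000684. Leaving out single libraries gave between the mutants -0.168 to 0.0775 for hsp-60, -0.128 to 0.0454 for lonp-1 and -0.0883 to 0.114 for ymel-1, in the double mutant against wild type -0.0217 to 0.151 for lonp-1 and -0.106 to 0.0960 for ymel-1, and in the fndc-1 mutant -0.0702 to 0.0230 for ymel-1. The cause of these shifts was not tested. Counting alone gave standard errors of at most 1.94% for the 6 genes.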
